A study of Mus musculus with 2 samples.

Results

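The genes described here encode proteins of the centrosome, and were chosen by name: every gene of the expression table whose mouse symbol starts with *Cep* or *Haus* followed by a digit or with *Tubg*, together with *Pcnt*, *Pcm1*, *Cenpj*, *Cntrob*, *Cdk5rap2*, *Stil*, *Sass6*, *Aspm*, *Ninl* and *Nin*. There were 59 such genes among the 10666 genes of the table. The name rule matched 64 annotated genes, and *Cep112it*, *Cep112os1*, *Cep170b*, *Cep295nl* and *Haus5* were not in the table used here. Of the 59, 58 were protein coding and *Cep83os* was a long noncoding RNA. A name does not give a function. *Cep55*, for instance, encodes a protein of the midbody, the bridge between daughter cells that is cut at the end of division.

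The data are single-cell RNA-seq of 2 replicate cultures of neurospheres, floating clusters of dividing neural progenitors, from the dorsal telencephalon of wild-type C57BL/6 mouse embryos at embryonic day 14.5. Both cultures were grown with 10 ng/ml EGF and 10 ng/ml bFGF, without retinoic acid, and the labels give no allele or treatment that sets them apart. They were passaged in suspension before collection, and the sources do not say whether they came from separate litters. The study used them to define a cell-cycle position, an angle *θ* for every cell that runs from 0 to 2π, with S phase before π, G2 and mitosis around and after π, and G1/G0 near 0 and 2π. All comparisons below are between cells at different points of that cycle within each culture, which answers where along the cycle the transcript of each gene was highest.

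The centrosome is the main organiser of microtubules in animal cells. A pair of centrioles sits in a cloud of pericentriolar matrix that holds γ-tubulin ring complexes, from which microtubules grow. Centrioles are copied once per cycle in S phase, the matrix expands before mitosis to form the spindle poles, and in resting cells the older centriole can act as the base of a primary cilium. Several of these genes are known from primary microcephaly, an inherited reduction of brain size traced to dividing neural progenitors.

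Culture 1 held 5748 cells with a median of 19477 UMIs, and culture 2 held 7057 cells with a median of 14637. By deposited Seurat stage the medians for G1, S and G2M cells were 18355, 20463 and 21419 UMIs in culture 1 and 14104, 15402.5 and 16099.5 UMIs in culture 2. A total of 48 barcodes occurred in both libraries. Of 7 progenitor markers 6 were in the table. *Vim*, an intermediate filament of neural progenitors, was above 0 in 99.2% and 99.9% of the cells, *Hes1* in 44.5% and 50.5% and *Pax6* in 21.1% and 23.1%. Genes listed as markers of other cell types were above 0 too. Of those for oligodendrocyte progenitors *Olig2* was above 0 in 97.3% and 91.9% of the cells, so it does not set such cells apart here. *Pdgfra*, *Cspg4* and *Sox10* were above 0 in 0.751% to 13.7%. The astrocyte markers *Aldh1l1* and *S100b* were above 0 in 43.2% and 28.8% and in 18.6% and 6.65%, and the neuronal marker *Dcx* in 7.34% and 1.56%. In the table were 4 of 5 oligodendrocyte progenitor, 2 of 4 astrocyte and 1 of 6 neuronal markers. No marker of microglia, endothelium, multiciliated cells or red blood cells was in it. A gene missing from the table is not thereby shown to be absent from the cells. The values are scaled by the authors to each cell's depth. Multiplied by the cell's total relative to the mean, the most common value of a gene differed between genes. It ran from 0.433 to 1.21 over 44 of the centrosome genes, with medians of 0.993 and 1.05. Whether this value stands for 1 UMI was not tested. Between the cultures it differed for the same gene by a ratio of 0.702 to 1.20. Levels are therefore compared only between cells of the same culture for the same gene. With 1 condition and 2 cultures no test across conditions is possible, cells are not replicates, and no p-value is given. Each value is printed for both cultures instead, culture 1 first.

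The promoters of 6 members are printed first to show called genes with late and with earlier maxima in the order described below. *Cep89*, *Aspm* and *Cep55* had the latest maxima along the cycle. *Haus6* had the earliest, and *Sass6* and *Stil* are the next in that order for which a RefSeq window of full length lies outside the GENCODE gene. The sequences are from RefSeq on GRCm38.p6, 5′ to 3′ on the strand of the gene, and begin 200 bases before the RefSeq start of transcription. They end at that start or, where the GENCODE gene begins earlier, at the last base before it, which is 28 bases short of the RefSeq start in *Cep89* and 1 base short in *Aspm*. Capitals mark TTTGAA, the letters of the cell-cycle homology region, and CCAAT, the letters of the CCAAT box, each searched on both strands, so that TTCAAA and ATTGG are the same letters read on the other strand.
Cep89, chr7:35396863-35397034, plus strand: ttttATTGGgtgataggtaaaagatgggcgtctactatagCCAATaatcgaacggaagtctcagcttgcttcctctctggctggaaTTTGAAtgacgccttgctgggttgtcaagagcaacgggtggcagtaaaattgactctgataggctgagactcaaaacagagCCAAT
Aspm, chr1:139454573-139454771, plus strand: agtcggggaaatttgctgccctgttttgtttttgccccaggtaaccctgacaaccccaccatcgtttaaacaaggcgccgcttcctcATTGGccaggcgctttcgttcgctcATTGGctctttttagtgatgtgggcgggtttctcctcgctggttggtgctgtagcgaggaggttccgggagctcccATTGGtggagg
Cep55, chr19:38054784-38054983, plus strand: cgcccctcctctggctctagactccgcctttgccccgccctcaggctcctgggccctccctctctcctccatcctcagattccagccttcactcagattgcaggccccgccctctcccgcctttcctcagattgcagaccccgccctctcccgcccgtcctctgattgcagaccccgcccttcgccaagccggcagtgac
Haus6, chr4:86612056-86612255, minus strand: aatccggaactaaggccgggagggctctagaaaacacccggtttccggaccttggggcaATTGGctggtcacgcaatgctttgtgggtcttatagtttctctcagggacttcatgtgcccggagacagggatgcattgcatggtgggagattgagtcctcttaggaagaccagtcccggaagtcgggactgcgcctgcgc
Sass6, chr3:116594758-116594957, plus strand: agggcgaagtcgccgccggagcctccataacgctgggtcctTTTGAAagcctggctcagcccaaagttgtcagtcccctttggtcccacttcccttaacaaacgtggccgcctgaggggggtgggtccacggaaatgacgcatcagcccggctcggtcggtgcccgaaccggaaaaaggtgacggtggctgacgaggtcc
Stil, chr4:114999918-115000117, plus strand: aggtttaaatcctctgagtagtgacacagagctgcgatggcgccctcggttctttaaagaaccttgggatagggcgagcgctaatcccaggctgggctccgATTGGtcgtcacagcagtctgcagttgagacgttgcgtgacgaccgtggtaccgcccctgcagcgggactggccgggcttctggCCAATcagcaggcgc

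In *Aspm* and *Cep55* the TTTGAA letters lay just after the RefSeq start, in gcgataTTTGAAccgagcaaaa at bases 1 to 22 of *Aspm* and in agccgcgggaTTCAAActcccggaag at bases 15 to 40 of *Cep55*. In *Cep89* they began 114 bases before the RefSeq start, and in *Sass6* 159 bases before it.

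Transcripts of 13 of the 59 centrosome genes varied with the cell-cycle position in both cultures, by the measure that 2 harmonics of *θ* explained at least 0.05 of the variance of log2(value + 1) over cells (R², called when it holds in each culture). That is 22.0% of the members, and 4.01% of all 10666 genes met the same rule. The 13 were *Aspm*, *Cep89*, *Cep55*, *Haus4*, *Cep192*, *Pcnt*, *Cep57*, *Cep295*, *Haus8*, *Sass6*, *Haus6*, *Tubg1* and *Stil*. By role list, called were 4 of 13 centriole duplication, 3 of 10 pericentriolar matrix and 3 of 7 augmin genes, with *Cep192* in the first 2 lists. Of the appendage and the γ-tubulin genes 1 of 7 each was called, and of the spindle pole and midbody genes 2 of 2. The 0 of 12 satellite and cilium genes called is near the share of all genes. Other annotated genes overlap 4 of the 13 on the same strand, AC141477.1 in *Pcnt*, Gm23300 in *Cep55*, Gm24339 and Scarna9 in *Cep295* and Scarna8 in *Haus6*, so the reads of these 4 are uncertain to that extent. In culture 1 alone 15 members reached the threshold beside 5.60% of all genes, and in culture 2 alone 13 did beside 4.26%.

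The share of variance differed widely among the 13. *Aspm* stood apart with R² of 0.411 and 0.413, followed by *Cep89* with 0.165 and 0.143 and *Cep55* with 0.148 and 0.133. The other 10 lay between 0.0519 and 0.121. Just inside the threshold were *Stil* with 0.0519 and 0.0695, *Tubg1* with 0.112 and 0.0532 and *Haus6* with 0.0785 and 0.0536. Just outside were *Cep128* with 0.0406 and 0.0456, *Cdk5rap2* with 0.0472 and 0.0379, and *Haus3* with 0.0701 and 0.0349. At the other end 25 members had an R² under 0.01 in at least one culture. The median of the lower R² of each gene was 0.0144 over the members and 0.00183 over all genes. The median member had a value above 0 in 18.8% and 11.7% of the cells, and R² over single cells was small also for genes whose mean ratio between stages was several-fold. With the cell's log2 UMIs and their square in the fit 11 of the 13 were called, all but *Haus6* and *Stil*. Of all genes 3.86% were called in that fit.

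**Figure D1:**
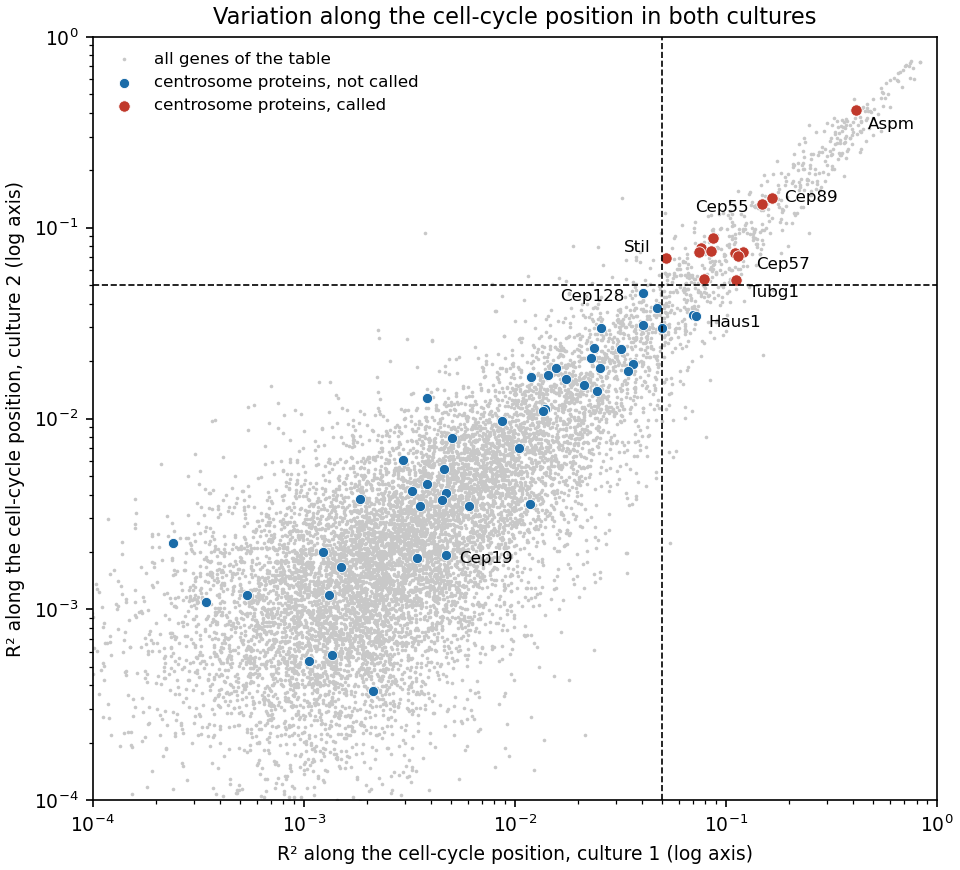
Share of variance (R²) explained by the cell-cycle position in culture 1 (horizontal, log axis) and culture 2 (vertical, log axis) for all 10666 genes (grey), the 13 called centrosome genes (red) and the other members (blue). Genes below the axis limits are not drawn, dashed lines mark the threshold of 0.05, and *Aspm* lies far above the other members at 0.411 and 0.413.

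The maxima of the called genes lay near the transition from S phase to mitosis. Of the 59 members 11 were both called and had the maximum of a periodic loess line, averaged over the cultures, within 0.25π of π, and 2.50% of all genes met both conditions. The augmin subunits *Haus6*, *Haus8* and *Haus4* came first, at 0.755π, 0.79π and 0.79π. The centriole assembly genes *Sass6* and *Stil* followed at 0.815π and 0.88π, *Cep192* at 0.89π and *Tubg1* at 0.895π. *Cep57* at 0.945π, *Pcnt* at 0.965π and *Cep295* at 1.02π lay closest to π. *Cep55* at 1.20π, *Aspm* at 1.27π and *Cep89* at 1.36π were the last. Between the cultures the maximum of a called gene moved by a median of 0.08π and by at most 0.175π, so that the neighbours in this order cannot be separated.

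*Cep55*, *Aspm* and *Cep89* followed the other 10 in each culture. In culture 1 the earliest of the 3 was at 1.275π and the latest of the other 10 at 1.065π. In culture 2 these positions were 1.10π and 0.96π, a gap smaller than the largest shift of a gene between the cultures. The 3 were also the last in both cultures with loess spans of 0.1 and 0.5 and with a position computed without any member. The gap was smallest with a span of 0.1, with which culture 2 had its earliest late gene at 1.075π and the latest of the others at 1.04π. These 3 genes were picked for their late maxima, so their lateness is a description.

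Means over 8 classes of the position, each 0.25π wide, give a coarser reading without a smoother. *Haus4*, *Haus6*, *Haus8*, *Sass6*, *Stil* and *Tubg1* had their highest mean in the class that ends at π in both cultures. *Aspm*, *Cep55*, *Cep89* and *Cep295* had it in the class that starts at π in both. *Cep57*, *Cep192* and *Pcnt* had it in the later of these classes in culture 1 and in the earlier one in culture 2. The classes thus do not set the 3 latest genes apart from *Cep295*. For *Cep89* and *Aspm* the loess maximum averaged over the cultures lay beyond the class with the highest mean. The class after it, which ends at 1.5π, held only 85 and 279 cells, and with a span of 0.1 their maxima over both cultures were at 1.255π and 1.13π.

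**Figure D2:**
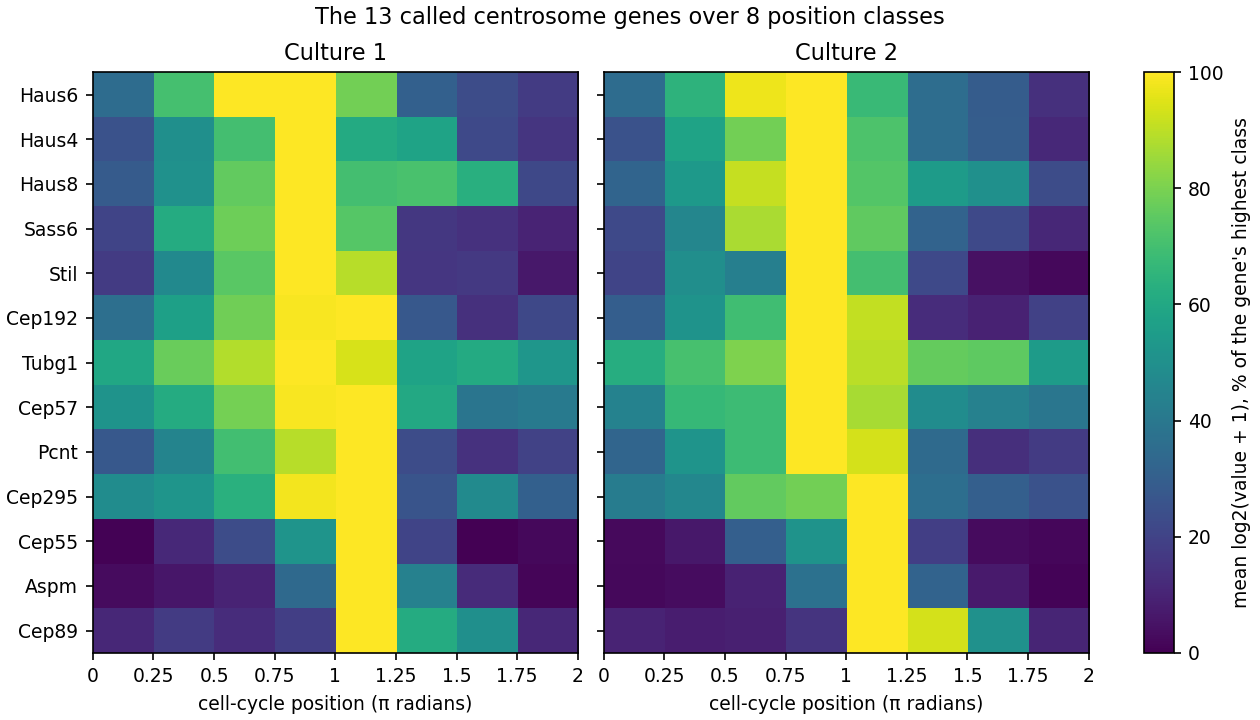
Mean log2(value + 1) of the 13 called genes in 8 classes of the cell-cycle position (horizontal axis, in π radians), as a percentage of the highest class of that gene in that culture, with genes ordered by their loess maximum from *Haus6* (0.755π) to *Cep89* (1.36π). The highest class of every gene lies within 0.25π of π in both cultures, and for *Cep55*, *Aspm* and *Cep89* the classes before 0.75π are dark.

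A second reading used the deposited Seurat stages, whose S and G2M gene lists hold no member. The list of genes behind the cell-cycle position was not given in the sources used here and may hold some, whereas these stages are independent of the members. Among genes with a value above 0 in at least 5% of the cells of each culture, 25 of 47 centrosome genes had a mean value at least 1.5 times as high in G2M as in G1 cells in both cultures. That is 53.2%, beside 7.40% of the 8333 genes tested, and 0 members were lower by the same factor beside 3.23% of genes. The median ratio over the 47 was 1.76 and 1.64, against 0.955 and 0.978 over all genes tested. At a factor of 2 there were 18 members, beside 4.45%. Some cell type markers also differed between these stages. The ratio of G2M to G1 was 0.325 and 0.509 for *S100b*, 0.663 and 0.657 for *Aldh1l1*, 0.833 and 0.479 for *Dcx* and 2.07 and 2.34 for *Pax6*. It lay between 0.657 and 1.23 for the other 5 progenitor markers. Among the oligodendrocyte progenitor markers it was 0.899 and 1.02 for *Olig2*, 2.36 and 0.864 for *Pdgfra*, 1.27 and 0.758 for *Cspg4* and 0.767 and 0.3001 for *Sox10*. The part of the cell types in the members' ratios was not tested. The 25 held all 13 called genes and 12 more, *Cenpj*, *Cep44*, *Cep57l1*, *Cep70*, *Cep85*, *Cep135*, *Cep250*, *Cdk5rap2*, *Haus1*, *Haus3*, *Haus7* and *Tubgcp3*.

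The size of the ratios depended on the stage caller. With the deposited cyclone stages, which come from another method, 20 of the 25 met the rule beside 5.04% of genes, and *Cep250*, *Haus6*, *Haus7*, *Tubg1* and *Tubgcp3* did not. Whether the genes behind the cyclone stages include members was not tested. All 13 called genes had lower ratios with these stages in both cultures. The ratios printed from here on use the Seurat stages, and cyclone values are given for some of the genes only. Among the rest, *Haus4* went from 3.97 and 4.61 to 1.61 and 2.16. *Cenpj* went from 5.39 and 4.30 to 2.38 and 2.40.

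Another 12 members did not pass the detection filter, *Cep72*, *Cep76*, *Cep83os*, *Cep85l*, *Cep95*, *Cep112*, *Cep126*, *Cep128*, *Cep152*, *Cntrob*, *Tubg2* and *Tubgcp6*, and a gene can pass it through the stage in which it is high. Without the filter 31 of all 59 met the rule, beside 7.56% of genes. The 6 added were *Cep72*, *Cep76*, *Cep112*, *Cep128*, *Cep152* and *Cntrob*, and none of these ratios was part of the counts above. *Cep128*, of the subdistal appendages, had the largest of these ratios, 8.38 and 17.2, on G1 means of 0.0135 and 0.00761. With the cyclone stages its ratios were 3.34 and 4.64.

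**Figure D3:**
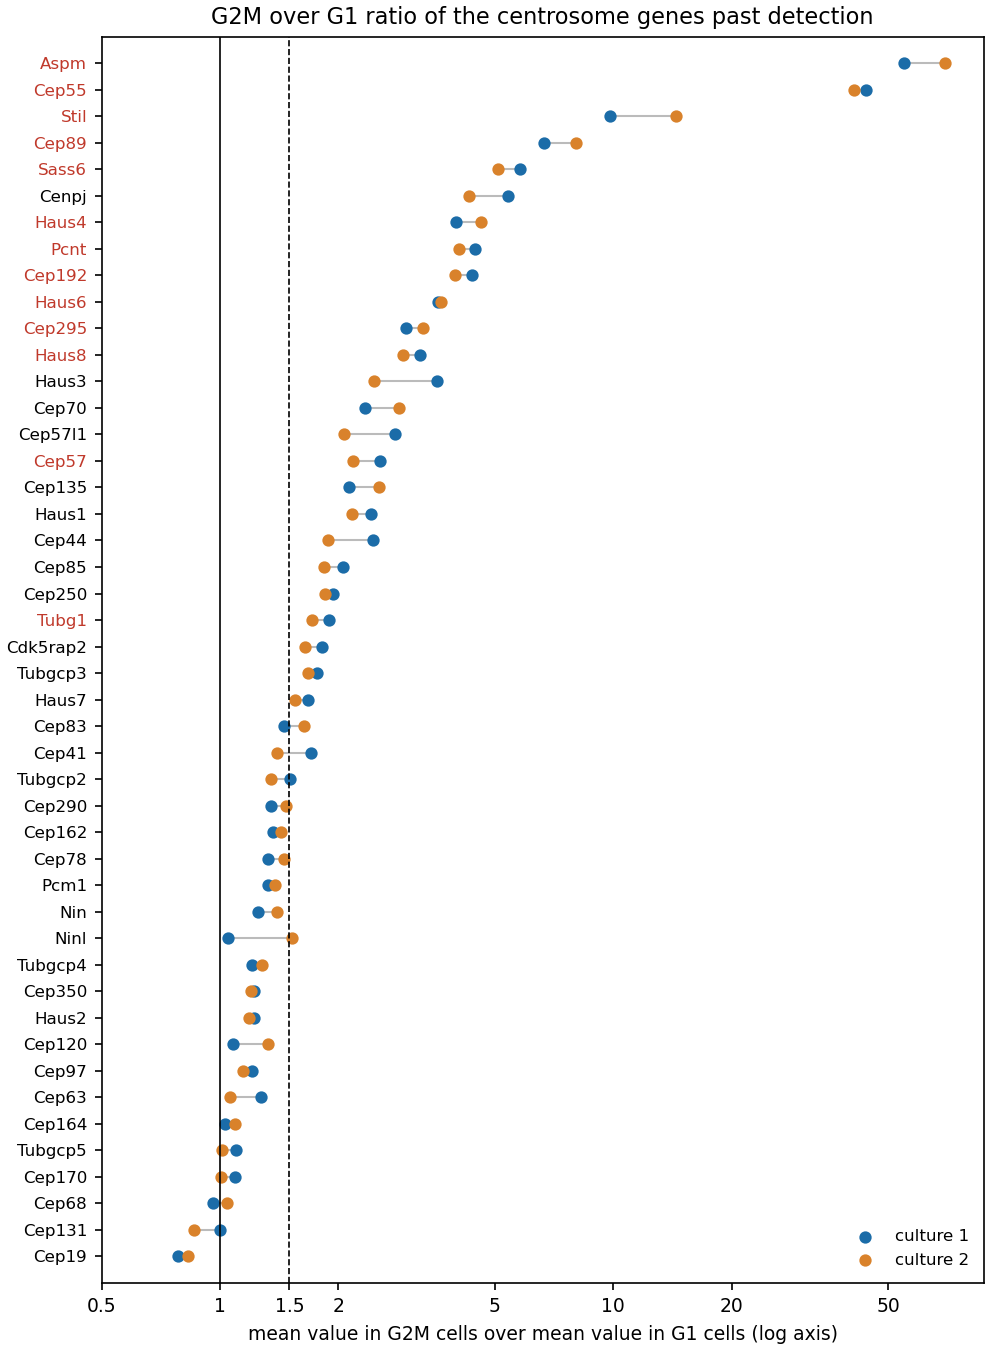
Mean value in G2M cells over the mean in G1 cells (log axis) for the centrosome genes past the detection filter that are named in the text, in culture 1 (blue) and culture 2 (orange), with the 13 genes called along the position named in red. The solid line marks equal means and the dashed line a ratio of 1.5. *Aspm* and *Cep55* lie above 40 in both cultures and only *Cep19* lies below 1 in both.

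Most of the 25 genes higher in G2M were already higher in S phase. In both cultures 23 of the 47 had a mean in S cells at least 1.5 times that in G1 cells, 48.9% beside 7.62% of genes, and 20 of these were among the 25 higher in G2M. A further rise from S to G2M by the same factor was seen for 4 members, 8.51% beside 2.18% of genes. They were *Aspm*, *Cep55*, *Cep89* and *Cep70*, the last of which was singled out after its values were seen. Among the same 25, *Haus4*, *Haus6*, *Haus8* and *Tubgcp3* had a lower mean in G2M than in S cells in both cultures, with ratios from 0.727 to 0.996.

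**Figure D4:**
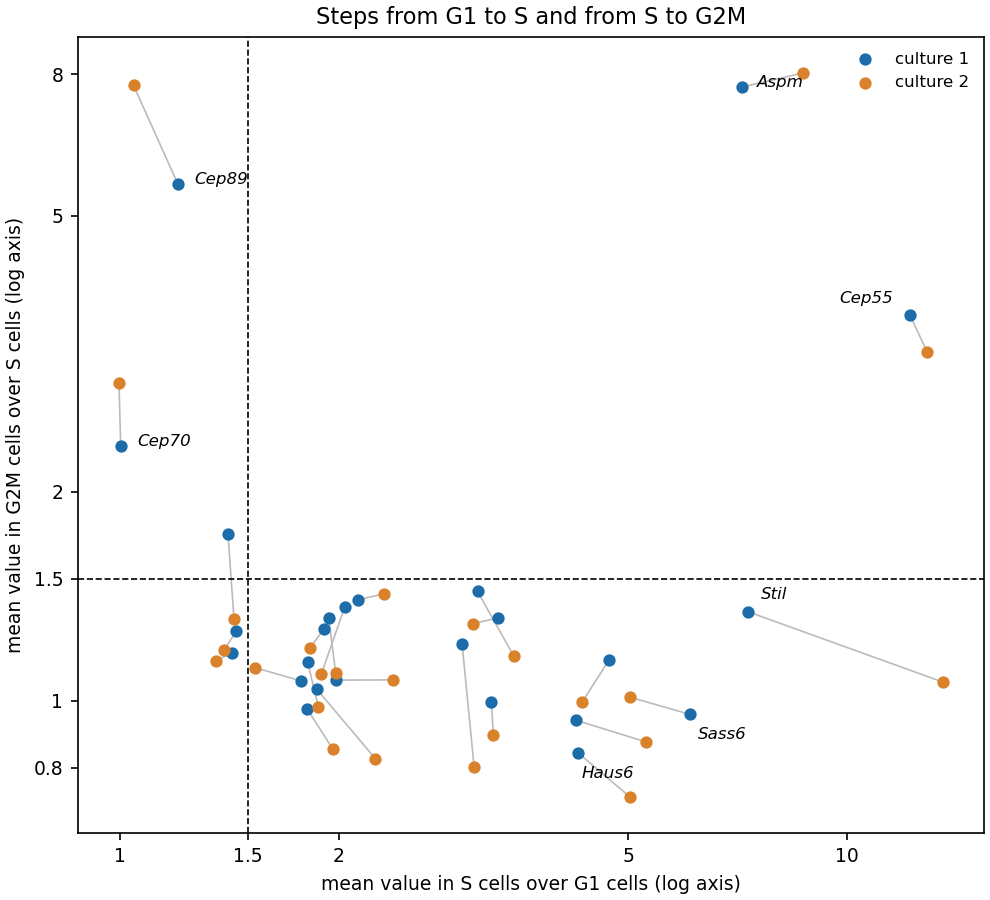
The 25 genes higher in G2M than in G1 by their step from G1 to S (horizontal, log axis) and from S to G2M (vertical, log axis), with the cultures in blue and orange joined by a line for each gene and dashed lines at 1.5. *Cep89* and *Cep70* lie at the left, near 1 on the horizontal axis, *Aspm* and *Cep55* at the upper right, and most others at the lower right.

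The spindle pole and midbody genes had the largest ratios of G2M to G1. *Aspm* (ENSMUSG00000033952, chromosome 1, 139454772-139494091, GRCm38, a protein-coding gene) encodes a protein that focuses the minus ends of microtubules at spindle poles and is the gene most often altered in primary microcephaly. Its mean value was 0.0215 in G1, 0.154 in S and 1.18 in G2M cells of culture 1, and 0.0153, 0.133 and 1.07 in culture 2. The rise thus came in both steps, by 7.16 and 8.70 times from G1 to S and by 7.67 and 8.04 times from S to G2M. The ratios of G2M to G1 were 54.9 and 69.9, on 60 and 57 G1 cells with a value above 0. With the cyclone stages they were 13.3 and 17.7. Along the position the lowest and highest class means of log2(value + 1) were 0.02 and 1.05 in culture 1, and 0.01 and 1.02 in culture 2.

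*Cep55* (ENSMUSG00000024989, chromosome 19, 38055011-38074423), which recruits the membrane-cutting machinery to the midbody, was low in G1. Its mean was 0.00751, 0.0917 and 0.329 in G1, S and G2M cells of culture 1, and 0.00656, 0.0846 and 0.269 in culture 2. The ratios of G2M to G1 of 43.9 and 41.0 rest on 20 and 18 G1 cells with a value above 0, and with the cyclone stages they were 9.24 and 10.6. Its step from G1 to S, of 12.2 and 12.9 times, was larger than its step from S to G2M, of 3.59 and 3.18 times.

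*Cep89* (ENSMUSG00000023072, chromosome 7, 35397035-35438689) encodes a component of the distal appendages, the spokes of the mother centriole that dock it to the membrane. It had another profile. Its mean was 0.0636 in G1 and 0.0764 in S, then 0.424 in G2M cells of culture 1, and 0.0463, 0.0483 and 0.373 in culture 2. The G1 to S ratio was only 1.20 and 1.04, and the S to G2M ratio 5.56 and 7.71, so that nearly the whole rise came after S phase. Its class means stayed at 0.09 or lower up to π in both cultures and reached 0.48 and 0.38 in the class that starts at π. Beyond that class the mean of *Cep89* was lower, at 0.24 and 0.19 between 1.5π and 1.75π, a class of 64 and 189 cells. *Cep70*, whose protein binds γ-tubulin at the centrosome, shared the flat step into S, with ratios of 1.002 and 0.997, and the rise after it, by 2.33 and 2.87 times, but its R² of 0.0405 and 0.0308 did not reach the threshold.

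**Figure D5:**
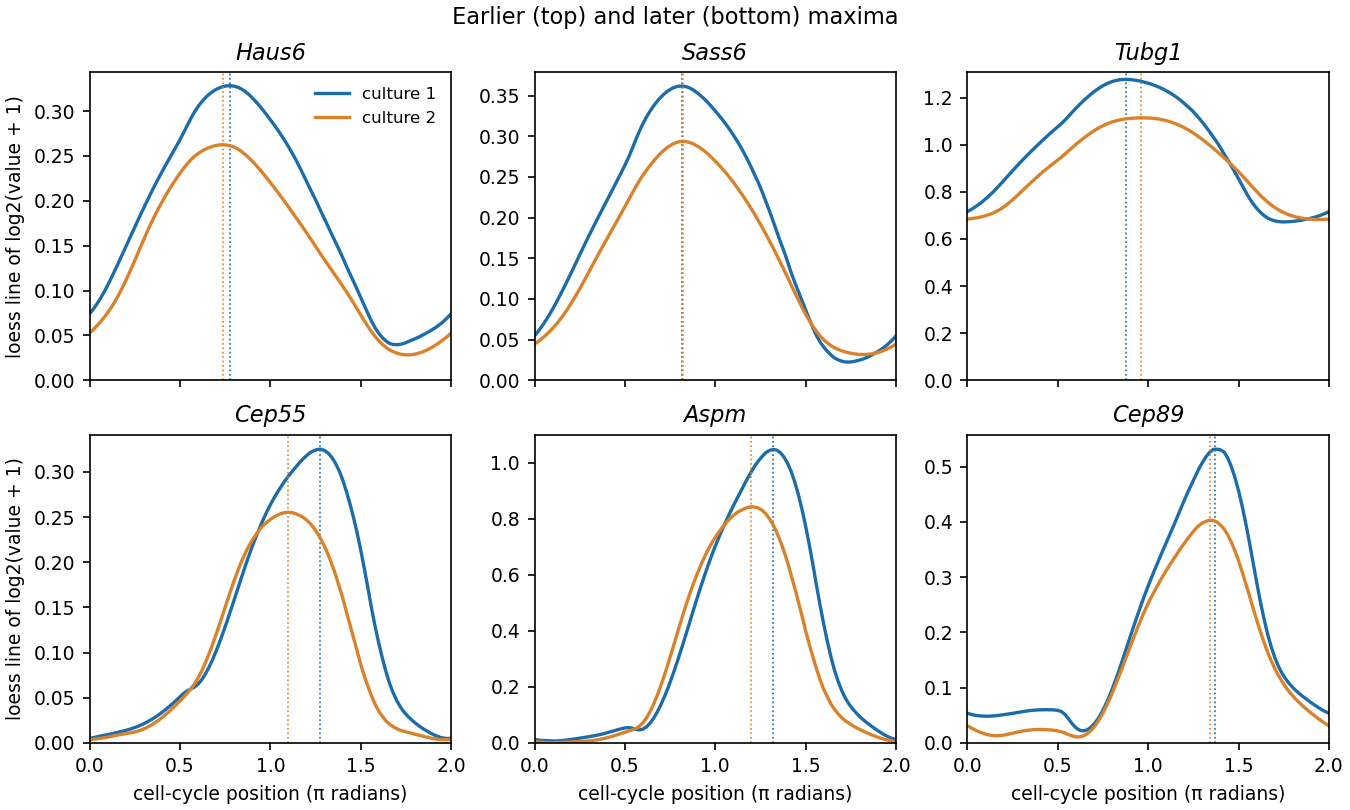
Periodic loess lines of log2(value + 1) along the cell-cycle position (in π radians) in culture 1 (blue) and culture 2 (orange) for 3 genes with earlier maxima (*Haus6*, *Sass6*, *Tubg1*, top) and the 3 with the latest (*Cep55*, *Aspm*, *Cep89*, bottom). Dotted lines mark the maxima, vertical scales differ between genes, and *Cep89* stays low up to about 0.75π in both cultures.

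Of the 7 appendage genes in the table *Cep89* was the only one called, 14.3% beside 4.01% of all genes, and of the 6 past detection the only one higher in G2M, 16.7% beside 7.40%. *Cep128*, the one that did not pass the filter, differed from *Cep89* in that its mean was already higher in S than in G1, by 4.76 and 9.22 times. *Cep170*, of the subdistal appendages, had G2M to G1 ratios of 1.09 and 1.003. *Cep164* and *Cep83*, the other distal appendage genes, had ratios of 1.03 and 1.09 and of 1.46 and 1.64, and the ninein genes *Nin* and *Ninl* had 1.245 and 1.40 and 1.05 and 1.53. The ratios of *Cep83* and of *Ninl* span the threshold between the cultures. *Cep83* was also higher in S than in G1, by 1.62 and 1.71 times. *Ninl* overlaps *Nanp* and Gm14142 on its own strand, *Cep164* overlaps 2610028D06Rik and *Cep170* overlaps 3110062G12Rik, Gm38104 and Mir350, so their reads are uncertain. The same holds for *Cdk5rap2*, *Cep85*, *Cep85l*, *Cep112*, *Cep131* and *Cep350*, named below or above, which also overlap annotated genes on the same strand.

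Among 13 genes of centriole duplication 4 were called, 30.8% beside 4.01% of all genes, and 7 of the 10 past detection were higher in G2M, 70% beside 7.40%. *Stil* and *Sass6* encode the pair that, with the kinase Plk4, builds the cartwheel of a new centriole. *Sass6* (ENSMUSG00000027959, chromosome 3, 116594982-116631004) had means of 0.0520, 0.316 and 0.302 in G1, S and G2M cells of culture 1 and of 0.0501, 0.252 and 0.255 in culture 2. It was thus at its G2M level already in S phase. *Stil* (ENSMUSG00000028718, chromosome 4, 115000159-115043196) had means of 0.0137, 0.0999 and 0.134 in culture 1 and 0.0116, 0.157 and 0.167 in culture 2. Its G2M to G1 ratios of 9.82 and 14.4 rest on 44 and 39 G1 cells with a value above 0, and with the cyclone stages they were 3.11 and 3.99. Those of *Sass6* went from 5.81 and 5.09 to 2.02 and 2.84.

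The remaining genes of that list split. *Cep192*, a scaffold that brings Plk4 and Aurora A to the centriole and also builds the matrix, had G2M to G1 ratios of 4.36 and 3.95. *Cep295*, needed for a new centriole to become a centrosome, had 2.97 and 3.29. *Cenpj* with 5.39 and 4.30, *Cep135* with 2.12 and 2.54 and *Cep44* with 2.45 and 1.88 were higher but not called along the position. *Cep63*, *Cep97* and *Cep120* were not higher, with ratios from 1.06 to 1.32. *Cep152*, the partner of *Cep63* in recruiting Plk4, had 2.34 and 2.57 but was too rarely detected to pass the filter.

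Of 10 pericentriolar matrix genes 3 were called, 30% beside 4.01% of all genes, and 7 of the 9 past detection were higher in G2M, 77.8% beside 7.40%. *Pcnt* (ENSMUSG00000001151, chromosome 10, 76351263-76442786) encodes pericentrin, the large scaffold of the matrix. Its mean was 0.0840, 0.261 and 0.374 in G1, S and G2M cells of culture 1 and 0.0783, 0.272 and 0.316 in culture 2, so the values rose in both steps. *Cep57*, which tethers the matrix to the centriole, had G2M to G1 ratios of 2.55 and 2.17 and its relative *Cep57l1* had 2.78 and 2.07. *Cdk5rap2*, which activates γ-tubulin ring complexes in the matrix, had smaller ratios of 1.82 and 1.64. *Cep85* with 2.06 and 1.83 and *Cep250*, a linker of the centriole pair, with 1.94 and 1.85 completed the list of those that were higher, and *Cep68*, another linker, had 0.959 and 1.04.

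The augmin complex amplifies microtubules by branching within the spindle. Of its 7 subunits with values 3 were called, 42.9% beside 4.01% of all genes. All 7 passed the detection filter and 6 were higher in G2M, 85.7% beside 7.40%. With the cyclone stages *Haus6*, at 1.499 and 1.89, and *Haus7*, at 1.46 and 1.52, no longer met the rule in culture 1. *Haus6* (ENSMUSG00000038047, chromosome 4, 86578855-86612055) had means of 0.0714, 0.304 and 0.256 in G1, S and G2M cells of culture 1 and 0.0526, 0.264 and 0.192 in culture 2. *Haus4* had 0.0762, 0.323 and 0.303 in culture 1 and 0.0642, 0.339 and 0.296 in culture 2, and *Haus8* had 0.151, 0.489 and 0.487 and then 0.144, 0.469 and 0.419. These 3 subunits were therefore no higher in G2M than in S cells in either culture.

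The augmin genes that were not called had G2M to G1 ratios of 3.57 and 2.47 for *Haus3*, 2.42 and 2.17 for *Haus1*, 1.67 and 1.55 for *Haus7* and 1.22 and 1.18 for *Haus2*, the subunit below the threshold. *Haus3* overlaps *Poln* on the same strand, so its reads are uncertain.

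Of 7 γ-tubulin and ring complex genes with values 1 was called, 14.3% beside 4.01% of all genes, and of 5 past detection 2 were higher in G2M, 40% beside 7.40%. With the cyclone stages neither of the 2 was, since *Tubg1* had 1.48 and 1.55 and *Tubgcp3* 1.37 and 1.47. *Tubg1* (ENSMUSG00000035198, chromosome 11, 101119938-101126419), the main γ-tubulin of dividing cells, had means of 0.865, 1.53 and 1.64 in G1, S and G2M cells of culture 1 and 0.855, 1.31 and 1.46 in culture 2. Its ratio of G2M to G1 was only 1.89 and 1.71, the smallest of the 13 called genes. *Tubg2*, the second γ-tubulin gene, known mainly from brain, did not pass the detection filter and had ratios of 0.686 and 0.897. Among the ring complex subunits *Tubgcp3* had 1.76 and 1.67, *Tubgcp2* 1.51 and 1.34, *Tubgcp4* 1.21 and 1.28 and *Tubgcp5* 1.10 and 1.01. *Tubgcp6*, with 1.61 and 1.39, did not pass the filter.

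None of the 12 genes of the centriolar satellites and the cilium in the table was called, beside the 4.01% of all genes. Of 10 past detection *Cep70* was the only one higher in G2M, 10% beside 7.40%, a share near that of all genes. The median ratio of the 10 was nevertheless higher, at 1.32 and 1.39 against 0.955 and 0.978 over all genes tested. The median of the lower R² over the 12 was 0.00614 against 0.00183 over all genes. Of those that did not pass the filter, *Cep72* had ratios of 7.12 and 5.70, on 25 and 36 G1 cells with a value above 0. *Cep126* had a lower mean in G2M than in G1 in both cultures. *Pcm1*, the scaffold of the satellites, had means of 1.44, 1.72 and 1.91 in G1, S and G2M cells of culture 1 and 1.26, 1.51 and 1.74 in culture 2, which gives ratios of 1.33 and 1.38. *Cep290* and *Cep162*, of the ciliary transition zone, had ratios of 1.35 and 1.47 and of 1.37 and 1.43. Of others past detection *Cep41* had 1.70 and 1.39, *Cep78* 1.32 and 1.45 and *Cep350* 1.22 and 1.20, while *Cep131* had 1.002 and 0.856. *Cep19*, which acts at the base of the cilium, was the only member past detection with a lower mean in G2M than in G1 in both cultures, with ratios of 0.784 and 0.827. The 4 members outside these lists, *Cep85l*, *Cep83os*, *Cep95* and *Cep112*, were not called and did not pass the detection filter.

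Across these roles a list of 9 genes linked to microcephaly held *Aspm*, *Cdk5rap2*, *Cenpj*, *Stil*, *Sass6*, *Cep135*, *Cep152*, *Cep63* and *Pcnt*. Of these 4 were called, 44.4% beside 4.01% of all genes, and of the 8 past detection 7 were higher in G2M, all but *Cep63*, 87.5% beside 7.40%. Among those called the maxima ran from *Sass6* at 0.815π to *Aspm* at 1.27π. The list overlaps with the roles above and adds no further genes.

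Other centrosome genes whose symbols the name rule does not reach were read the same way. Of 48 with values, 9 were called, 18.8% beside the 4.01%. The early maxima had counterparts in *Plk4*, the kinase that starts centriole duplication, at 0.835π with R² of 0.219 and 0.201, and in *Tedc1* at 0.895π with 0.0952 and 0.0649. Late maxima were found for *Bora* at 1.145π, *Aurka* at 1.20π, *Tpx2* at 1.235π, *Hmmr* at 1.24π, *Ckap5* at 1.28π, *Cntrl* at 1.3π and *Tacc3* at 1.41π. *Tpx2*, which targets Aurora A to the spindle, had the highest R² of the list with 0.705 and 0.700. *Ccdc77*, with 0.0483 and 0.0566, lay just under the threshold.

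The same rules were applied to spindle motors and to genes of the primary cilium. Of 13 mitotic kinesins 12 were called, 92.3%, with maxima from 1.065π on, all within 0.25π of π. None of 43 primary cilium genes was called, beside 4.01% of all genes. Of 24 cilium genes past detection 1, *Ift27*, was higher in G2M, 4.17% beside 7.40%, with ratios of 1.55 and 1.65. Several of these genes and of those above are in the Seurat lists, *Tpx2*, *Aurka* and *Kif11* among them, and may also be among the genes behind the position. The median of the lower R² was 0.253 for the kinesins, 0.0144 for the members and 0.00104 for the cilium genes.

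The letters marked in the promoters were counted over 300 bases, from 250 before to 50 after each RefSeq start. A promoter was given for 49 of the 59 members and for 11 of the 13 called. TTTGAA was found in 5 of the 11 called members with a promoter, *Aspm*, *Cep55*, *Cep89*, *Cep295* and *Sass6*, which is 45.5%, and in 8 of the other 38, which is 21.1%. Of all 27025 genes with a promoter 20.2% held it, and of the 8318 that also had expression values 14.1%. CCAAT was found in 8 of the 11, 72.7%, and in 15 of the 38, 39.5%, beside 41.1% of all promoters and 43.4% of those in the table. The E2F letters TTTGGCGC or TTTCGCGC were found in 0 of the 11 and in *Cep63* among the 38. The share was 0.929% of all promoters and 1.86% of those in the table. These are matches of letters in a fixed window, with 11 genes in the first group, and no binding was measured.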

How the data were processed

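Spliced counts were quantified by the authors with Alevin in Salmon 1.3.0 against GRCm38 with GENCODE annotation. They removed cells with few genes, cells far from the median in UMIs, genes, mitochondrial share or doublet score, mitochondrial genes and rarely detected genes, and integrated the cultures with Seurat 3.2.2. No further cell filter or doublet caller was applied. The deposited expression values are a signal on a linear scale, normalized by the authors to the depth of each cell. A gene's values, multiplied by the cell's total, had a most common value that differed between genes and cultures. Whole counts were not recovered, and count models were left out. Total UMIs, also deposited, add up the estimated counts of a cell. The deposited cell table also holds other values, namely the position, stage names and sample names.

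Symbols and coordinates were taken from GENCODE on GRCm38 for 10662 of 10666 genes, and coordinates are those of the gene. Per gene and culture, 2 harmonics of the position were fitted to log2(value + 1) and called at an R² of 0.05 in both cultures. Maxima came from a periodic loess line of degree 2 with span 0.3 on 401 positions. Ratios are of mean linear values between deposited Seurat stages, called at 1.5 in both cultures for genes above 0 in 5% of the cells of each. The alternative position was the polar angle of a principal component analysis of 91 Seurat genes. It correlated with the deposited position with a circular correlation of 0.951 over both cultures, and of 0.932 and 0.910 within them. The code was tested on simulated data. Python 3.11.15 was used with numpy 2.4.6, pandas 2.3.3, scipy 1.17.1 and matplotlib 3.10.9.

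Members named in the text are those called, the 3 next by R², the gene with the highest deposited mean value in each role list, all augmin, γ-tubulin and microcephaly genes and, of the other centrosome genes, the 10 with the highest R². Further members were named to account for the lists, and 1 member is counted but not reported by name here. The members and the lists were chosen with earlier results of these data known.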

Additional observations from a re-analysis of the deposited data

How the results depend on the processing

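Of the 59 members 13 were called along the position. That count was 23 at an R² of 0.02, beside 8.34% of all genes, 3 at 0.1, beside 2.25%, and 8 with equal weight for each position class, beside 3.38%. The count was 15 with culture 1 alone, beside 5.60%, and 13 with culture 2 alone, beside 4.26%. Linear values and a fit with log2 UMIs and its square each gave 11, without *Haus6* and *Stil*, beside 3.79% and 3.86%. The loess R² gave 12, without *Stil*, beside 3.90%. The 11 called with a maximum within 0.25π of π became 20 at an R² of 0.02, beside 4.66% of all genes. At 0.1 there was 1, beside 1.43%, and with equal weight there were 6, beside 1.99%. Culture 1 alone gave 12, beside 3.29%, and culture 2 alone gave 11, beside 2.63%. The 9 of 48 other centrosome genes became 23 at 0.02, beside 8.34%, and 11 with either culture alone, beside 5.60% and 4.26%. The 25 members higher in G2M became 20 with the cyclone stages, beside 5.04% of all genes, 19 as a difference of 0.1 in mean log2 value, beside 12.1%, and 27 with either culture alone, beside 9.76% and 8.35%, and none was lower in any of these settings. The cyclone stages moved the log2 ratio of 26 of 31 named members by more than the spread of the cultures. For *Tubgcp5* the log2 ratio of G2M to G1 turned to -0.0508 with the cyclone stages. Of 31 named members 19 had their maximum moved beyond the spread of the cultures by a loess span of 0.1 and 11 by a span of 0.5. No paired analysis was possible because there is 1 group, whose replicate numbers cannot pair it with another. Sparse values limit R², a fold between cells of 1 stage rests on few cells for genes low in G1, and 2 cultures give no estimate of error beyond their own difference.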
